A study of Mus musculus with 6 samples.

Results

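The 10 genes described here encode the cyclins, the kinase, the kinase inhibitors and the pocket protein that govern passage through G1 in mammalian cells: Ccnd1, Ccnd2, Ccnd3, Ccne1, Ccne2, Cdk4, Cdkn1b, Cdkn1c, Cdkn2c and Rb1. They were chosen by name, and every probe set that the platform annotation paired with 1 of these symbols alone was taken, which gave 21 probe sets. The array held 12393 genes with such a probe set. The samples were C2C12 myotubes, made from an established mouse myoblast line by growth to confluence with 20% fetal bovine serum and then 5 days with 2% horse serum. The 2 groups were myotubes given palmitate at 500 µM and myotubes given bovine serum albumin (BSA) at 1%, both for 16 h, with 3 arrays each. Palmitate, the most common saturated fatty acid of the diet and of plasma, was delivered as a complex with fatty acid-free BSA according to the design text. Both groups had been differentiated in the same way, so proliferating myoblasts were not a group of this comparison. Replicates were numbered, but no label called them separate cultures, so the p-values reflect the scatter of these 6 arrays, and that scatter may be technical.

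D-type cyclins bind CDK4 or CDK6 in early G1 and start the phosphorylation of the retinoblastoma protein, which otherwise holds E2F transcription factors inactive. E-type cyclins bind CDK2 and complete that step at the entry to S phase. INK4 inhibitors such as the product of Cdkn2c bind CDK4 and CDK6, whereas Cip/Kip inhibitors such as the products of Cdkn1b and Cdkn1c bind cyclin-CDK complexes. Myoblasts leave the cycle before they fuse, and cyclin D3, the retinoblastoma protein and several inhibitors are known to accumulate during that withdrawal.

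Palmitate-treated myotubes had lower transcripts of 2 of these genes than BSA-treated myotubes: the INK4 inhibitor Cdkn2c, at 1662 ± 326.6 against 3463 ± 196.6 (signal, SD, n = 3 each), and the cyclin Ccne2, at 641.9 ± 147.5 against 1281 ± 342.4 (signal, SD, n = 3 each). None of the 10 rose past the threshold by limma, and 1 (Ccnd2) had an unadjusted p under 0.05 in the upward direction. Of the 10 genes, 9 had a brightest probe set above the filter on low signals and were tested, and Cdkn1c lay below it. The call was a Benjamini-Hochberg adjusted p under 0.05 from limma, fitted over 13575 probe sets. By the same rule 20.2% of the 7931 genes tested were called (12.3% lower and 7.92% higher with palmitate), so 2 of 9 is close to the background and says nothing particular about this set. Over the 13575 probe sets the shares called were 19.2% in either direction, 8.63% higher and 10.6% lower, and 2 of the 17 G1 probe sets tested were called. Of the probe sets called, 44.9% were higher with palmitate as deposited, and 11.3% were higher when arrays were scaled to added control RNAs. The median log2 fold change, palmitate over BSA, was -0.41 over the 9 genes and -0.051 over all genes tested.

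**Figure D1:**
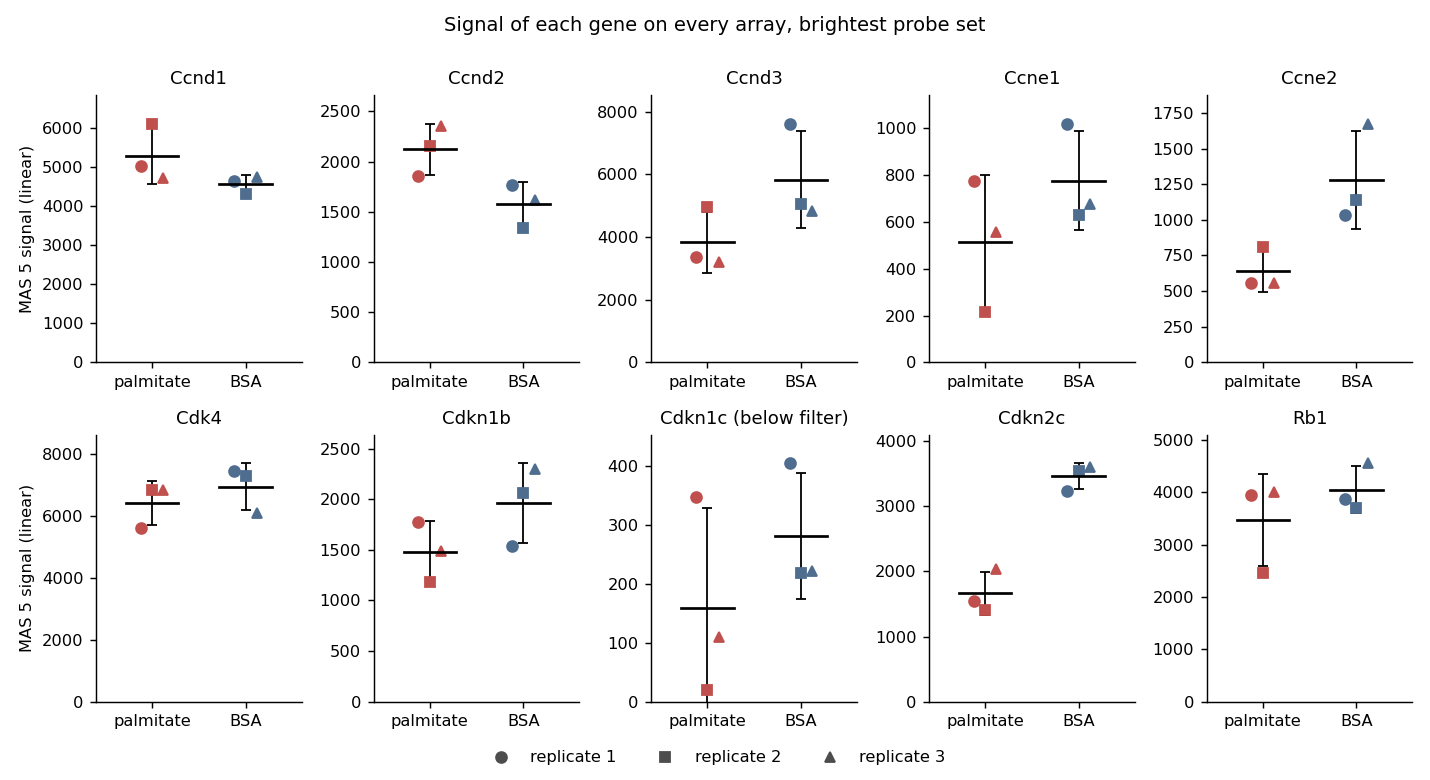
MAS 5 signal (linear scale) of the brightest probe set of each gene on every array, with palmitate on the left and BSA on the right of each panel. Points are arrays, marked by replicate number, horizontal bars are means and error bars are SD (n = 3). The groups are separate for Ccnd2, Ccne2 and Cdkn2c, and palmitate replicate 2 is the lowest palmitate array for Ccne1, Cdkn1b, Cdkn1c, Cdkn2c and Rb1.

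Correlations between arrays of the same group were 0.943 to 0.959 over the probe sets tested, and those between groups were 0.883 to 0.910. BSA replicate 1 and palmitate replicate 2 stood apart from the other arrays on the second principal component (17.7% of the variance). On BSA replicate 1 the summed signal of 14 myotube markers was 319990, against 214296 and 241143 on the other BSA arrays and 244301 to 249059 with palmitate. On palmitate replicate 2 the log2 ratio of 3' to 5' signal of the Gapdh control was -0.20, against 0.19 and 0.22 on the other palmitate arrays and 0.21 to 0.35 with BSA. The arrays had been scaled by the authors to equal average signal. The 9 hybridisation control probe sets, which read RNAs added to each sample, were brighter with palmitate, at a mean log2 signal of 13.15 ± 0.14 against 12.81 ± 0.14 with BSA (SD, n = 3 each, exact permutation p = 0.1, two-sided, the smallest possible). Scaling to them would lower every log2 fold change by 0.33, and the calls it changes among the genes named are given beside them.

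Among the D cyclins, Ccnd1 encodes cyclin D1, the form that mitogens induce in many cells. On its brightest probe set (1448698_at) it had signals of 5044, 6109 and 4731 with palmitate, against 4653, 4302 and 4740 with BSA. Palmitate replicate 2 was the highest array and the groups overlapped. The log2 fold change was 0.21 ± 0.15 (SE, limma adjusted p = 0.377), with a 95% interval of -0.12 to 0.54, and scaling to the hybridisation controls turned it to -0.13 (adjusted p = 0.684). The other 2 probe sets of Ccnd1 gave log2 fold changes of 0.092 ± 0.16 and -0.18 ± 0.18, so the 3 did not share a sign and none passed.

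Ccnd2, which encodes cyclin D2, was read by 7 probe sets, of which 5 lay above the filter. On the brightest (1434745_at) the signals were 1853, 2156 and 2358 with palmitate, against 1769, 1337 and 1618 with BSA. All palmitate arrays were above all BSA arrays, a separation that 38.3% of all genes tested showed in one direction or the other and 15.9% showed upward (37.2% and 17.6% of probe sets). In limma the log2 fold change was 0.43 ± 0.19 (SE, limma adjusted p = 0.128), with a 95% interval of 0.029 to 0.84. The second probe set (1416122_at) had 1610, 1409 and 1324 with palmitate, against 1019, 828.5 and 1212 with BSA. It too separated the groups, at 0.52 ± 0.21 (limma adjusted p = 0.105).

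The remaining 3 Ccnd2 probe sets above the filter had log2 fold changes of 0.83 ± 0.32, 0.56 ± 0.31 and 0.76 ± 0.33, with adjusted p between 0.0923 and 0.241 and overlapping groups. All 5 values were positive and 4 had an unadjusted p under 0.05, but none passed after adjustment. Leaving out BSA replicate 1 brought 1430127_a_at under the threshold (adjusted p = 0.0487), and leaving out BSA replicate 3 did so for 1448229_s_at (adjusted p = 0.0455). These probe sets read the same transcripts in the same samples and are not independent of each other. Names ending in _x_at and _s_at, which 2 of the 5 carry, mark probe sets that may also bind other transcripts. Scaling to the hybridisation controls left the brightest at 0.099 (adjusted p = 0.789). The 2 dim probe sets had signals of 14.8 to 314.2 with palmitate and 15.1 to 182.9 with BSA, and were not tested.

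Ccnd3 encodes cyclin D3, the D cyclin that persists in differentiated muscle. Its probe set (1415907_at) had signals of 3350, 4945 and 3192 with palmitate, against 7608, 5056 and 4830 with BSA. BSA replicate 1 was the highest and palmitate replicate 2 lay between the 2 lower BSA arrays, so the groups overlapped. This gave a log2 fold change of -0.60 ± 0.22 (SE, limma adjusted p = 0.0703), with a 95% interval of -1.07 to -0.14. Without BSA replicate 1, the array with the highest myotube markers, it was -0.40 (adjusted p = 0.197). Without palmitate replicate 2 it was -0.80 (adjusted p = 0.0214), without both arrays -0.60 (adjusted p = 0.0152), and scaled to the hybridisation controls -0.94 (adjusted p = 0.00697). The part of the myotube marker level and of the 3' to 5' signal ratio in these values was not tested.

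Ccne1 and Ccne2 encode the E cyclins, and both are known E2F targets. Ccne2 (1422535_at) had signals of 558.2, 812.3 and 555.3 with palmitate, against 1036, 1136 and 1673 with BSA. Every palmitate array was below every BSA array, which 22.4% of all genes and 19.6% of all probe sets tested showed in that direction. On the log2 scale the fold change was -0.99 ± 0.26 (SE, limma adjusted p = 0.0191), or 1.98-fold lower with palmitate. The call ended without BSA replicate 3 (-0.78, adjusted p = 0.0884), without palmitate replicate 1 (-0.90, adjusted p = 0.0563) and without palmitate replicate 3 (-0.90, adjusted p = 0.0640).

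Ccne1 (1416492_at) had signals of 776.0, 214.8 and 555.6 with palmitate, against 1018, 629.9 and 678.0 with BSA. Palmitate replicate 2 was far below the other 5 arrays and the groups overlapped. The log2 fold change was -0.74 ± 0.42 (SE, limma adjusted p = 0.250), with a 95% interval of -1.67 to 0.18. Without palmitate replicate 2 it was -0.21 (adjusted p = 0.688), and with BSA replicate 1 left out as well it was 0.0070 (adjusted p = 0.990). The size of this value therefore rests on 1 array.

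Cdk4 encodes the kinase partner of the D cyclins. The name of its brightest probe set, 1422441_x_at, marks one that may also bind other transcripts. On this probe set the signals were 5606, 6839 and 6817 with palmitate, against 7457, 7285 and 6077 with BSA. The groups overlapped there and on 1422439_a_at. On the third, 1422440_at, palmitate arrays (3455 to 3477) lay just below the BSA arrays (3508 to 4179). The 3 log2 fold changes were -0.11 ± 0.15, -0.16 ± 0.18 and -0.14 ± 0.15 (SE, limma adjusted p of 0.651, 0.572 and 0.547), with 95% intervals that together ran from -0.54 to 0.22. Changes of more than 1.5-fold in either direction lay outside all 3 intervals, as deposited; scaling to the hybridisation controls moved the brightest to -0.45 (adjusted p = 0.0775).

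RefSeq's mouse table (GRCm38.p6) gave start sites for 5 of the 10 genes, in 7 windows, and the 250 bases before the start of Cdk4 are shown because they carry 4 copies of the E-box CACGTG, the sequence bound by MYC and related factors (in capitals, chr10:127063285-127063534, plus strand).
Cdk4: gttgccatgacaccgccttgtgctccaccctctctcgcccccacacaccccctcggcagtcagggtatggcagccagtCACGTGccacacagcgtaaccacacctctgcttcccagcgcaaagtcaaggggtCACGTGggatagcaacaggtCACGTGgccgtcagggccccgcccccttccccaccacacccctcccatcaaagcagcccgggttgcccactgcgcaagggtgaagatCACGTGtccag
The copies began 172, 118, 98 and 11 bases before the start. Among all 32851 windows of that length, 6.02% held at least 1 E-box and 7 windows held 4 or more, while none of the other windows of the G1 genes held 1. CACGTG reads the same on both strands. This is a description of the letters, and no binding was measured here.

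The INK4 inhibitor Cdkn2c gave the largest difference among the 9 G1 genes tested. Its probe set (1416868_at) had signals of 1548, 1408 and 2030 with palmitate, against 3239, 3543 and 3607 with BSA. The highest palmitate array was well under the lowest BSA array. In limma the log2 fold change was -1.08 ± 0.18 (SE, limma adjusted p = 0.00153), or 2.11-fold lower with palmitate, with a 95% interval of -1.47 to -0.68. Leaving out each array in turn gave -1.23 to -0.96, with adjusted p up to 0.0118, and without BSA replicate 1 and palmitate replicate 2 together it was -1.01 (adjusted p = 0.00384).

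RefSeq lists 2 starts for Cdkn2c, and the 250 bases before each are shown because the same gene begins in windows of very different composition (both on the minus strand, chr4:109666757-109667006 and chr4:109665373-109665622, with copies of the GC box GGGCGG in capitals).
Cdkn2c upstream start: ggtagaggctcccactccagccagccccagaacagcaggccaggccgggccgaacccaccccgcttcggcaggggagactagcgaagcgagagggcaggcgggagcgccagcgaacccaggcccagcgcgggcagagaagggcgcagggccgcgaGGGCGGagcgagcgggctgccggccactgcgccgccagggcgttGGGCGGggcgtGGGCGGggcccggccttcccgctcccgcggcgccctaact
Cdkn2c downstream start: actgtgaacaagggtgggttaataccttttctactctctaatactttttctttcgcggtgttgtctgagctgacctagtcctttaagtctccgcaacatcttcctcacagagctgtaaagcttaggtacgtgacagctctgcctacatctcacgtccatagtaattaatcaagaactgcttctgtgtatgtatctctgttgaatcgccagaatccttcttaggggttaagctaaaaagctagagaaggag
The upstream window was 77.2% G and C and held 3 GC boxes, and the downstream window was 42.8% G and C and held none, where 32.7% of all windows held at least 1 on either strand. The E2F motif, searched as TTTCCCGC, TTTGGCGC, TTTCGCGC and TTTGCCGC on both strands, was in 0 of the 7 windows of the G1 genes and in 1.86% of all windows. That says only that these letters are not in these windows. The probe set does not tell which start was used.

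The Cip/Kip inhibitor Cdkn1b, which encodes p27, had signals of 1780, 1179 and 1486 with palmitate, against 1534, 2057 and 2301 with BSA, on its brighter probe set (1434045_at). The groups overlapped through palmitate replicate 1 and BSA replicate 1. This gave a log2 fold change of -0.41 ± 0.22 (SE, limma adjusted p = 0.220), with a 95% interval of -0.88 to 0.067, and it was -0.74 (adjusted p = 0.0337) scaled to the hybridisation controls. The dimmer probe set (30.1 to 228.2 with palmitate, 41.5 to 411.6 with BSA) lay below the filter, and averaging both gave -0.20 (adjusted p = 0.839). Cdkn1c, which encodes p57, had signals of 347.7, 19.7 and 110.6 with palmitate, against 404.7, 218.8 and 221.0 with BSA. Its mean log2 signal was below the filter and the groups overlapped, so its level was not resolved here. Palmitate replicate 2 had the lowest signal of the 6 arrays for both inhibitors.

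Rb1 encodes the retinoblastoma protein, the main substrate of these kinases and a factor needed for lasting withdrawal of muscle cells from the cycle. Its signals (1417850_at) were 3951, 2465 and 4006 with palmitate, against 3881, 3708 and 4556 with BSA. Palmitate replicate 2 was the low array and the other 5 overlapped. On the log2 scale the fold change was -0.25 ± 0.20 (SE, limma adjusted p = 0.428), with a 95% interval of -0.69 to 0.19, and without palmitate replicate 2 it was -0.019 (adjusted p = 0.954).

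**Figure D2:**
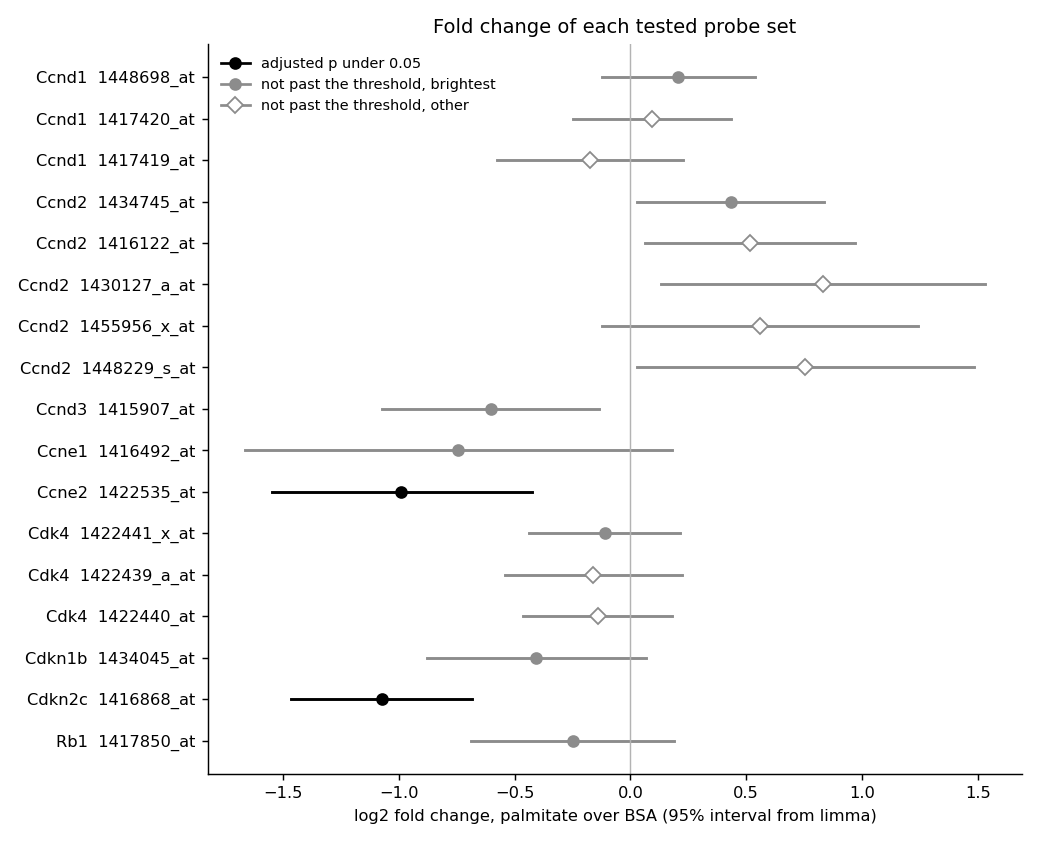
Log2 fold change, palmitate over BSA, of the 17 probe sets above the filter, with 95% intervals from limma (n = 3 arrays per group). Filled circles are the brightest probe set of a gene and open diamonds the others, and black marks an adjusted p under 0.05. Only Ccne2 (-0.99) and Cdkn2c (-1.08) are black, all 5 Ccnd2 probe sets lie right of 0, and the 3 Cdk4 probe sets lie close to 0.

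Ratios of pairs of these genes on the same array do not depend on how arrays are scaled, and 6 pairs were compared. The level of a ratio also reflects how well each probe set binds, so only its difference between groups is read. The log2 ratio of Ccnd2 over Ccnd3 was -0.86, -1.20 and -0.44 with palmitate, against -2.11, -1.92 and -1.58 with BSA. The groups did not overlap, and the difference, palmitate minus BSA, was 1.04 (exact permutation p = 0.1, two-sided, adjusted p = 0.2 over the 6 pairs). With 3 arrays against 3, 0.1 is the smallest p this test can give, so no pair could pass.

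Ccnd1 over Ccnd3 differed by 0.81, and Cdk4 over Cdkn2c by 0.96, again with no overlap between groups and the same p (exact permutation p = 0.1, adjusted p = 0.2). On the brightest probe sets, every palmitate array thus had more D1 and D2 signal per D3 signal than every BSA array, and more Cdk4 signal per Cdkn2c signal. Both D cyclin ratios share Ccnd3 as denominator, so they are not independent of each other. Without BSA replicate 1, the array highest in Ccnd3, Ccnd1 over Ccnd3 differed by 0.62 and Ccnd2 over Ccnd3 by 0.92. Of all single genes tested, 38.3% separated the groups in one direction or the other, and the share among gene pairs was not computed. On leaving out each array in turn, these 3 differences stayed between 0.62 and 1.22, and with probe sets averaged Ccnd1 over Ccnd3 was 0.65 (exact permutation p = 0.2). Ccnd1 over Ccnd2 (-0.23, exact permutation p = 0.4), Ccne1 over Ccne2 (0.25, exact permutation p = 0.8) and Cdkn1c over Cdkn1b (-1.16, exact permutation p = 0.4) overlapped between groups. The last uses a probe set below the filter, and palmitate replicate 2 was its lowest array at -5.90.

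**Figure D3:**
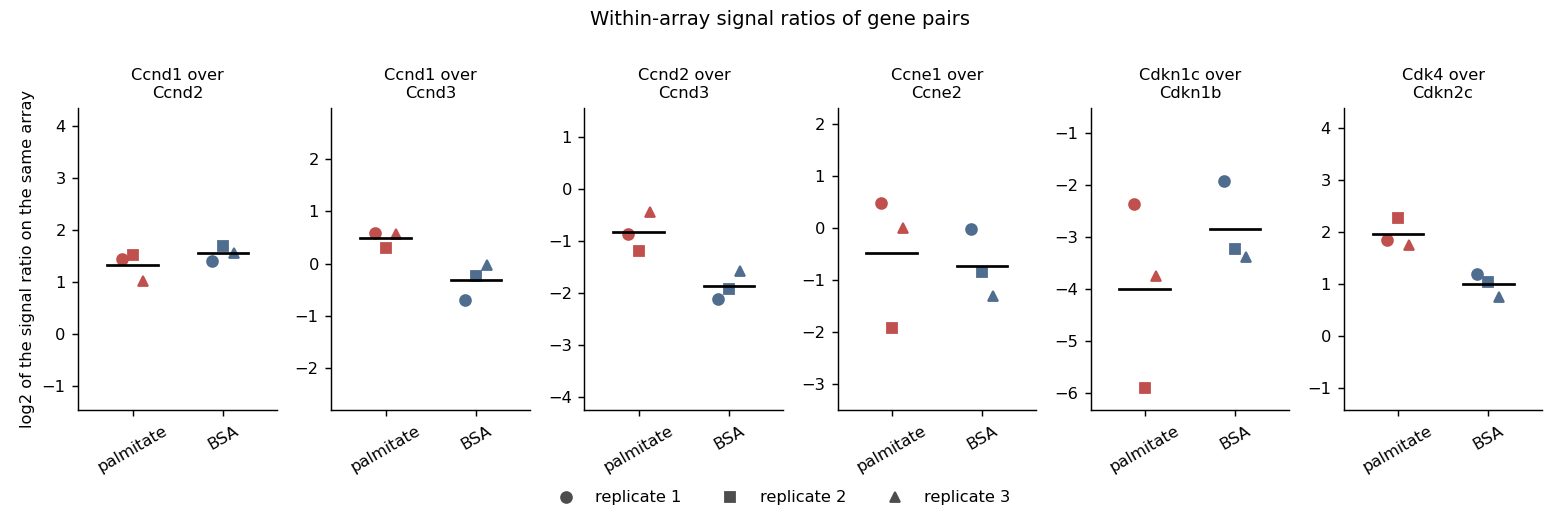
Log2 ratio of the signals of 2 genes on the same array, with palmitate left of BSA in each panel. Points are arrays marked by replicate number and bars are group means, and every panel spans the same number of log2 units. The groups separate for Ccnd1 over Ccnd3, Ccnd2 over Ccnd3 and Cdk4 over Cdkn2c.

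The other genes of the pathway were taken from lists chosen by function. Of 2 other CDK inhibitors above the filter, the INK4 gene Cdkn2d fell, with 1109, 1115 and 801.9 with palmitate against 2289, 2167 and 2150 with BSA (log2 fold change -1.14 ± 0.19, limma adjusted p = 0.00163). Cdkn1a, which encodes p21, had 35696, 31963 and 35954 with palmitate against 30245, 34905 and 29162 with BSA, and its groups overlapped (0.14 ± 0.12, adjusted p = 0.472). Cdkn2a and Cdkn2b lay below the filter. Both INK4 genes above the filter, Cdkn2c and Cdkn2d, were thus called lower with palmitate, as were 12.3% of all genes tested. The 2 Cip/Kip genes above it, Cdkn1a and Cdkn1b, did not pass in either direction as deposited. Scaled to the hybridisation controls, Cdkn1b was called lower (limma adjusted p = 0.0337). With 2 genes of each family, the families cannot be compared.

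Of 9 other pocket protein, E2F and DP genes above the filter, 3 fell and 0 rose, against a background of 12.3% lower among all genes. The falls were those of the pocket proteins Rbl1 (p107) and Rbl2 (p130) and of the repressor E2f8. Rbl1 had 742.8, 580.4 and 771.6 with palmitate against 1724, 1890 and 1871 with BSA (-1.40 ± 0.20, limma adjusted p = 0.000565). Rbl2 was at -1.02 ± 0.22 (adjusted p = 0.00782) and E2f8 at -1.35 ± 0.29 (adjusted p = 0.00800). E2f3, an activator, was higher on every palmitate array without passing (0.98 ± 0.33, adjusted p = 0.0578). It passed in 5 of 17 alternatives, those with median, 75th percentile or quantile scaling, without the intensity trend and with probe sets averaged, and was at 0.65 (adjusted p = 0.224) scaled to the hybridisation controls. The list median was -0.14.

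Of 6 other kinases and activators, Cdk7, a kinase that activates other CDKs and takes part in transcription, rose (0.84 ± 0.17, limma adjusted p = 0.00612). That call ended when the probe sets of the gene were averaged (0.47, adjusted p = 0.132) and when arrays were scaled to the hybridisation controls (adjusted p = 0.0967). Cdk2, the partner of the E cyclins, was at -0.47 ± 0.17 (adjusted p = 0.0691), and the Cdk7 partners Ccnh (-0.34 ± 0.16, adjusted p = 0.149) and Mnat1 (-0.31 ± 0.18, adjusted p = 0.262) did not pass. Scaled to the hybridisation controls these 3 were called lower, Cdk2 at -0.80 (adjusted p = 0.0104), Ccnh at -0.68 (adjusted p = 0.0146) and Mnat1 at -0.64 (adjusted p = 0.0376), and with probe sets averaged Cdk2 also passed (adjusted p = 0.0466). Of 12 genes of ubiquitin ligases that act on G1 proteins, 0 passed, with a median of -0.099, where 20.2% of all genes tested passed. Skp2, which targets p27, came nearest (-0.67 ± 0.23, adjusted p = 0.0597). Scaled to the hybridisation controls the median was -0.43 and 3 were called lower: Skp1 (adjusted p = 0.0117), Skp2 (adjusted p = 0.0124) and Ddb1 (adjusted p = 0.0255). The Cdk6 probe set lay below the filter, with signals of 126.6 to 151.4 with palmitate and 11.2 to 64.7 with BSA.

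Genes that E2F factors induce for S phase fell in 11 of 16 cases and rose in 0, with a median of -1.01. Among all genes tested, 12.3% fell and 7.92% rose. Tk1, the thymidine kinase, had 513.5, 575.3 and 784.0 with palmitate against 3728, 4038 and 3424 with BSA (-2.60 ± 0.20, limma adjusted p = 8.81e-06). The helicase subunits Mcm6 and Mcm7 were at -1.31 ± 0.15 and -1.16 ± 0.14, and the ribonucleotide reductase subunit Rrm1 at -1.18 ± 0.17. These had the smallest p of the list. Cdc6, Cdt1, Pcna, Rrm2 and Ung were at negative values that did not pass (limma adjusted p of 0.138 to 0.564). Scaled to the hybridisation controls, Cdc6, Pcna and Rrm2 were called lower (limma adjusted p of 0.0486, 0.00553 and 0.00482). Without BSA replicate 1, Pcna and Rrm2 also passed (adjusted p of 0.0365 and 0.0309), as did Rrm2 with probe sets averaged (adjusted p = 0.0235). The call of Mcm3 ended in 11 of 17 alternatives, that of Pola1 in 7 and that of Rfc4 in 3. Markers of mitosis and proliferation fell in 7 of 11 cases and rose in 0, with a median of -1.07. The summed signal of the 11 was 17469 to 19376 with palmitate and 32893 to 38664 with BSA. Mki67, the proliferation antigen, was at -1.59 ± 0.18, the survivin gene Birc5 at -1.40 ± 0.18, the cyclin Ccnb2 at -1.46 ± 0.20 and the topoisomerase Top2a at -1.13 ± 0.15, though averaging the probe sets of Top2a left -0.48 (adjusted p = 0.453). Leaving out each array in turn gave 8 to 12 falls in the S-phase list and 6 to 7 in the mitotic list. In bulk samples, fewer cells of a type and less RNA per cell cannot be told apart.

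**Figure D4:**
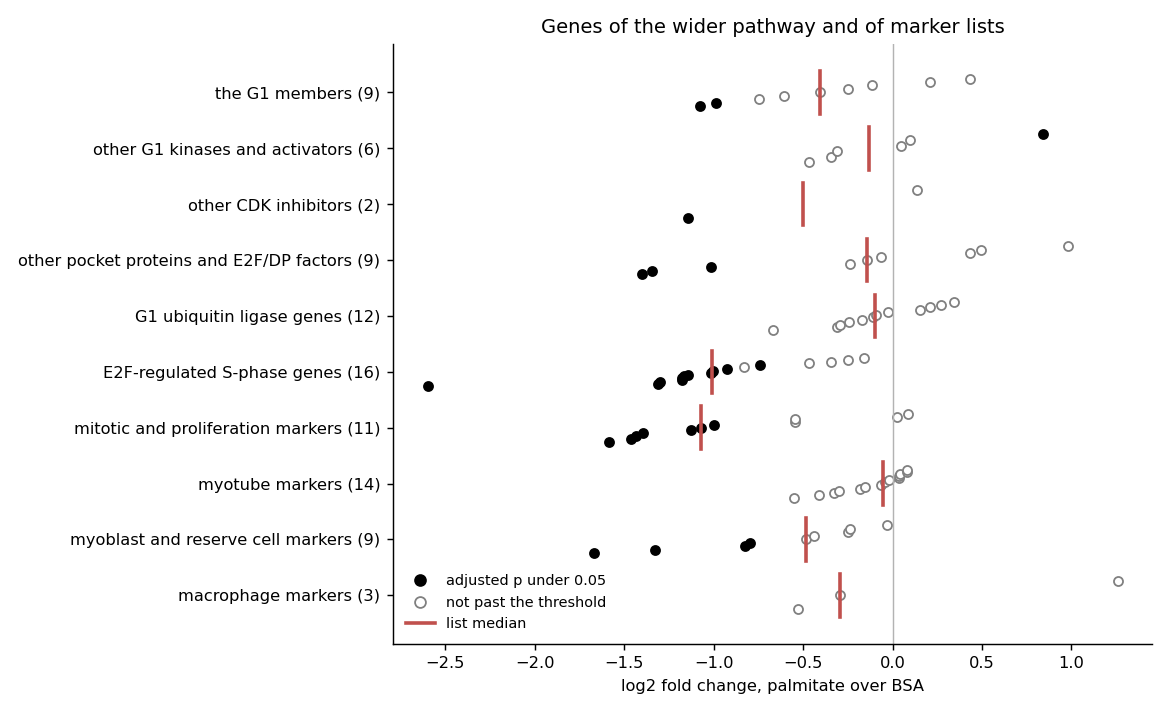
Log2 fold change, palmitate over BSA, of each gene above the filter in the G1 set and in the lists of the wider pathway and of cell type markers, with the number of genes in brackets. Filled points have an adjusted p under 0.05 and red lines are list medians. The S-phase and mitotic lists lie mostly left of 0 and the myotube markers lie around 0. The G1 set has 7 genes left of 0 and 2 right of it.

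Myotube identity was checked with 14 markers, all above the filter. Myogenin (Myog), the factor that drives differentiation, had 19465, 20416 and 19678 with palmitate against 25800, 19606 and 16098 with BSA; it is given as the defining marker and not for its p. Of the 14, 0 passed in either direction by limma, with a median of -0.053, where 20.2% of all genes tested passed. The smallest p were those of the transcription factor Mef2c (-0.41 ± 0.16, adjusted p = 0.0876, and 0.0477 with its probe sets averaged) and the troponin Tnnt1 (-0.55 ± 0.25, adjusted p = 0.158). Scaling to the hybridisation controls called 4 lower: Mef2c, Tnnt1, Tnnt3 and Mylpf. It called 14 of the S-phase list, 9 of the mitotic list and 6 of the myoblast and reserve cell list lower. Over all probe sets it called 3169 lower, in place of 1437 as deposited. Of 9 myoblast and reserve cell markers above the filter, 4 fell and 0 rose, where 12.3% of all genes tested fell. The falls were those of Myod1 (-1.33 ± 0.16), Pdgfra (-1.67 ± 0.32), Id3 (-0.82 ± 0.22) and Id2 (-0.79 ± 0.25). Pdgfra had 276.0, 224.3 and 293.0 with palmitate, near the filter signal of 267.1, against 614.0, 858.9 and 1100 with BSA. It thus passed the filter through its BSA arrays, and the average of its probe sets was not tested. The summed signal of this list was 15823 to 17960 with palmitate and 22142 to 29713 with BSA. The call of Id3 ended in 5 of 17 alternatives: without BSA replicate 1, BSA replicate 3, palmitate replicate 1 or palmitate replicate 3 (adjusted p up to 0.0861), and without the intensity trend. That of Id2 ended in 12 of 17, among them 4 that leave out 1 array (BSA replicate 2 or 3, palmitate replicate 2 or 3, adjusted p up to 0.172) and averaged probe sets (adjusted p = 0.268).

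The 4 of 9 myoblast and reserve cell markers and 7 of 11 mitotic markers that fell did so on the same arrays as Ccne2 and Cdkn2c, and their part in those values was not tested. Others of these lists did not pass, among them the myogenic factor Myf5 (-0.24, adjusted p = 0.603), Id1 (-0.030, adjusted p = 0.954) and the mitotic kinase Aurka (0.087, adjusted p = 0.780), named after their values were seen. None of 5 adipocyte and 6 endothelial markers reached the filter, with summed signals of 619 to 753 and 450 to 1031 with palmitate and of 463 to 470 and 495 to 721 with BSA. Of 6 macrophage markers 3 reached it and 0 passed by limma, where 20.2% of all genes tested passed (summed signal 2025 to 2575 with palmitate, 1642 to 2130 with BSA). Csf1r, the receptor for a macrophage growth factor, had 729.1, 724.9 and 703.4 with palmitate against 529.9, 124.8 and 409.3 with BSA (1.26 ± 0.47, limma adjusted p = 0.0805). It was called higher without BSA replicate 1 (adjusted p = 0.0316), while averaging its probe sets gave 0.44 (adjusted p = 0.431). Adgre1 (-0.53 ± 0.32) and Cd14 (-0.29 ± 0.24) were at negative values that did not pass, and Ptprc, which marks all leukocytes, was below the filter.

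The genes whose signals over the 6 arrays were most like those of Cdkn2c were Prkd3, a protein kinase D (Pearson r = 0.9988), the cytokine Il15 (r = 0.9978) and Cavin2, a caveolar coat protein (r = 0.9967). The arrays form 2 groups, so a high r mainly repeats the group difference, and 625 of 7930 genes had an r above 0.9. Il15 had 332.9, 260.9 and 469.1 with palmitate against 993.5, 1047 and 1097 with BSA, the same order of palmitate arrays as Cdkn2c. For Prkd3, averaging the probe sets left a log2 fold change of -0.070 (adjusted p = 0.919), so its likeness to Cdkn2c describes its brightest probe set alone.

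**Figure D5:**
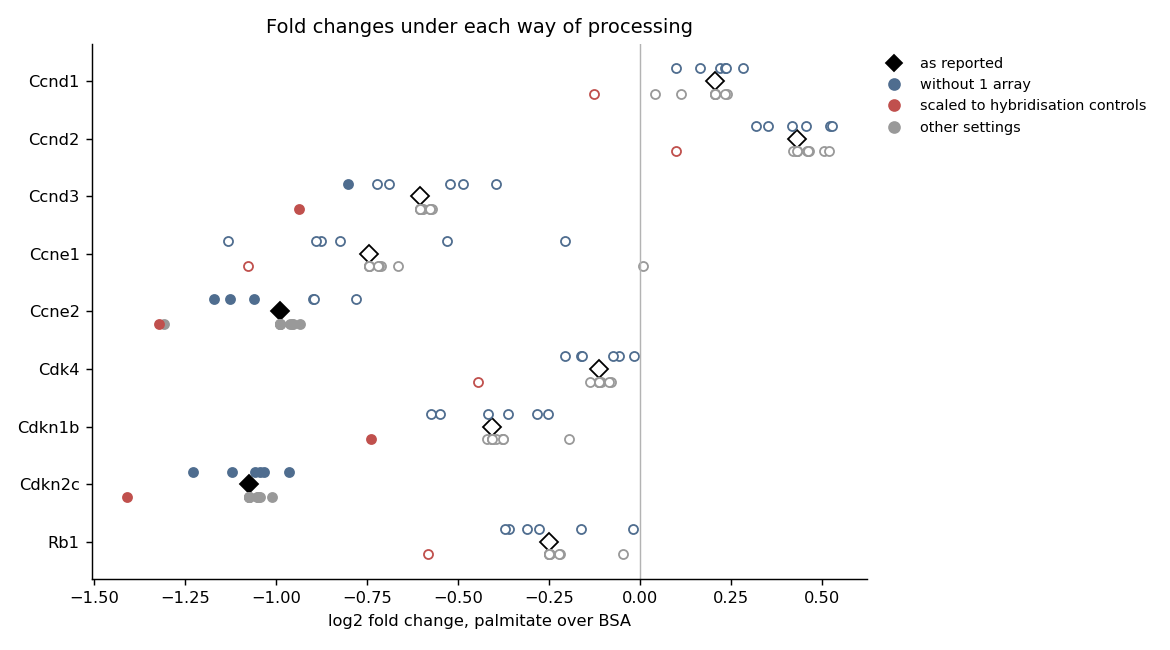
Log2 fold change, palmitate over BSA, of the 9 genes tested, as reported (diamonds) and under each of 17 other ways of processing (circles), with filled symbols for an adjusted p under 0.05. Cdkn2c is filled throughout, Ccne2 loses its call in 3 of the 6 settings that leave out 1 array, and the red circles, scaled to the hybridisation controls, lie 0.33 to the left of the reported values.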

How the data were processed

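RNA of 6 samples was hybridised to Affymetrix mouse 430A 2.0 arrays. Per the labels, each labelling started with 10 µg of total RNA. The deposited values are linear signal intensities, 1 per probe set, made by the authors with MAS 5 per the submitters' processing notes. Settings of that step: not given in the sources used here. Averaged without the outer 2% at each end, the signal was 1500.5 to 1500.56 on every array. No batch could be examined from the columns used, and the number of arrays limits the precision.

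Of 22690 probe sets, 64 were controls. Of the other 22626, GEO's platform annotation gave 20380 with 1 symbol, 691 with several and 1555 with none, and names were used for the first only. Tests used log2 of the signal, without an added constant. The filter kept 13575 probe sets whose mean over the 6 arrays exceeded the percentile 40 of all non-control probe sets, a signal of 267.1. Limma 3.58.1 in R 4.3.3 (lmFit, eBayes with an intensity trend, two-sided, Benjamini-Hochberg adjustment over all 13575) compared palmitate with BSA. Each gene is represented by its brightest probe set. Signals of different probe sets are not compared. Ratios were tested by exact permutation (scipy 1.17.1).

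The 10 genes, the lists and the alternatives were chosen with earlier results of these data known. All 10 genes are named with every probe set, and of each list up to 4 genes with the smallest p, any covered by a count of 5 or fewer, and the 3 genes most like Cdkn2c. Rbx1, E2f2, E2f7, Tfdp2, Ccnb1, Plin1 and Cfd were not analysed here. Replicate numbers did not pair the arrays by the labels. On 10 simulated sets of 13575 probe sets with 200 changed, the fit recovered 3.73% of changes of 1.5-fold, 37.9% of 2-fold and 86.1% of 4-fold. Of its calls, 5.68% were false. In the data 2609 probe sets were called, far more than 200, and the adjustment is stricter where fewer change. These rates therefore do not measure what the fit recovers here, and a gene that did not pass may still differ.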

Additional observations from a re-analysis of the deposited data

How the results depend on the processing

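Cdkn2c kept its direction and its call under all 17 alternatives, with log2 fold changes of -1.41 to -0.96. Over the 9 tested genes and Cdkn1c, 146 of 155 values kept their direction and, where the gene was tested as reported, their side of the threshold. The 2 values of Cdkn1c count by direction alone. Scaled to the hybridisation controls, 4 of the G1 genes were called in place of 2, all lower (Ccnd3 and Cdkn1b were added), Ccnd1 turned to -0.13, and 43 genes of the pathway and marker lists were called in place of 27. Over all probe sets that scaling called 3573 in place of 2609, with 3169 lower in place of 1437. The added calls thus go with a shift of all values and are not particular to these genes. The cause of the brighter controls was not tested; 9 older control probe sets differed by 0.26 where those used differed by 0.33, and leaving out each array in turn gave 0.25 to 0.41. Leaving out each array in turn gave 1 to 3 called G1 genes, all lower, 22 to 28 called list genes and 1575 to 2339 called probe sets in place of 2609. With BSA replicate 1 and palmitate replicate 2 left out, an alternative chosen after seeing the data, 3 G1 genes were called, Ccne1 turned to 0.0070 and the log2 ratio of Cdkn1c over Cdkn1b to 0.25. The ratio of Ccne1 over Ccne2 turned to -0.043 without BSA replicate 3 and to -0.23 without palmitate replicate 1, and was 0.96 without palmitate replicate 2. Averaging probe sets tested fewer rows and called 1515 genes. With the replicate number as a block, 2 G1 genes, 25 list genes and 1973 probe sets were called. Deviations of same-numbered arrays from their group means correlated at -0.23, -0.13 and 0.0091, so the numbers are no evidence of pairing. Dim probe sets limit Cdkn1c and the second Cdkn1b probe set.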
